A study of Mus musculus with 3 samples.

Results

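The 9 genes described here, Spink1, Pga5, Clps, Ptgds, Lgals2, Pla2g12b, Aqp8, S100g and Srgn, encode proteins that are secreted or that carry water or calcium, and most of them are best known from the adult digestive tract. They were selected by name out of 32285 measured genes because earlier results of these same libraries had shown them in visceral endoderm (VE) cells, so their levels in those cells, and the differences between the groups of VE cells, are a description. The VE is the polarized epithelium that surrounds the epiblast (Epi) of the mouse embryo around implantation. It takes up material from the maternal side, digests part of it in large lysosomes, and secretes carrier proteins, and through this it shares a large set of genes with liver, gut and yolk sac. A patch of VE cells, the anterior visceral endoderm (AVE), expresses secreted antagonists such as Sfrp1, Cer1 and Dkk1.

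Single-cell RNA-seq had been done on 3 kinds of structures grown from mouse embryonic stem cells of the E14tg2a strain, with 1 library each. BELAs, bilayered aggregates with a VE layer around an Epi core, were made from the iGATA line, clone C6, in which doxycycline switches on a GATA4 transgene. Induction lasted 8 h at 0.5 µg/ml in 2i and LIF and was followed by 16 h in N2B27. After re-seeding, the aggregates grew for 3 days in N2B27. VE cysts, which lack the Epi core, came from the same clone. Doxycycline was kept for 16 h more, in N2B27 with FGF4 (10 ng/ml) and heparin (1 µg/ml). The cysts then grew for 3 days with FGF4 and heparin, which BELAs did not receive at either step. Epi cysts were grown from iGATA cells in matrigel, in 2i and LIF and then for 3 days in N2B27, with no doxycycline step given. Both BELAs and VE cysts were picked by hand, and VE cysts with a visible core were avoided. All VE cells therefore derive from 1 clone, and the interaction with Epi cells, the longer GATA4 induction, FGF4 with heparin and the library cannot be told apart in any comparison of BELAs with VE cysts.

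A cell was kept if it had 4000 or more detected genes and no more than 10% mitochondrial UMIs, and it was called VE where the UMIs (unique molecular identifiers, 1 per captured mRNA) of Gata6, Sox17, Dab2 and Cubn exceeded those of Pou5f1, Sox2, Nanog and Fgf4. This gave 542 VE and 868 Epi cells in BELAs, 577 VE and 48 Epi cells in VE cysts, and 656 Epi cells in Epi cysts. Of the BELA VE cells, 72 held Sfrp1 at 200 CPM or more (Sfrp1-high) and 470 did not (Sfrp1-low), whereas none of the 577 VE cyst cells did. Levels are given in CPM, the usual counts-per-million scale of UMIs pooled from the cells concerned. Median depth was 86641 UMIs per cell in Sfrp1-high cells, 90600 in Sfrp1-low cells and 56914 in VE cyst VE cells. No cell barcode was shared between the libraries after filtering. The summed level of the 4 VE markers was 1770 CPM in Sfrp1-high cells, 3001 CPM in Sfrp1-low cells and 3003 CPM in VE cyst VE cells. With 1 library per structure no test was possible: the intervals are exact 95% Poisson or Clopper-Pearson intervals of counting error, cells are not replicates, and "higher" or "lower" by the 2-fold rule means a log2 ratio of at least 1 in size after adding 5 CPM to both levels. In pooled cells, fewer cells that express a gene and less RNA in each cannot be told apart, so values per cell are given as well.

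All 9 genes were far higher in VE than in Epi cells of BELAs. Summed, they made up 7958 CPM in Sfrp1-high, 5528 CPM in Sfrp1-low and 4141 CPM in VE cyst VE cells, against 48.6 CPM in Epi cells of BELAs and 10.98 CPM in Epi cysts. Every one of the 9 was higher in VE than in Epi cells of BELAs, by 66.7-fold (95% interval 57.9 to 77.2) for Ptgds up to 258-fold (187 to 366) for Lgals2, beside 14.1% of all 9450 genes tested. In VE cysts 8 of 9 were higher in VE cells than in the 48 Epi cells, beside 20.1% of all genes, and the exception was Ptgds with 7.10 CPM in VE cells and 1.16 CPM in Epi cells (log2 ratio 0.97), whose mean level there lay under the 5 CPM asked of genes tested; the other 8 passed it. The Epi level in BELAs was 0.388% to 1.499% of the VE level over the 9 genes (median 0.799%), close to the 0.686% to 1.34% of the VE markers Cubn, Dab2, Gata6 and Sox17, which the cell call itself used. Free RNA was not separated from expression at this level. In Epi cysts, where VE cells were absent but for 1 cell, Clps, Pla2g12b and Aqp8 had no UMI among 656 cells, which puts the BELA VE level at least 294-fold, 1691-fold and 2252-fold higher, against a floor of 3 counts over the group.

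**Figure D1:**
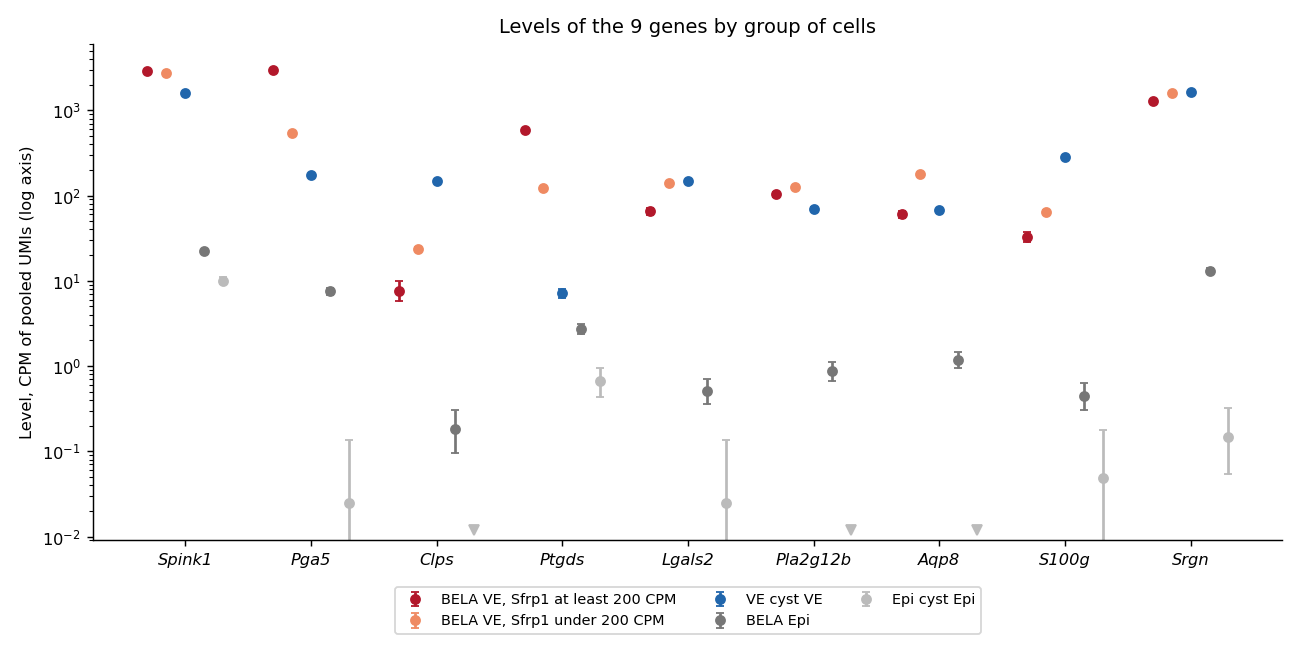
Level of each of the 9 genes, in CPM of pooled UMIs on a log axis, in Sfrp1-high and Sfrp1-low VE cells of BELAs, VE cells of VE cysts, Epi cells of BELAs and Epi cells of Epi cysts; bars are 95% Poisson intervals and triangles at the lower edge mark groups with no UMI. Spink1 and Srgn sit above 1000 CPM in all 3 VE groups, while Ptgds lies at 581 CPM in Sfrp1-high cells and at 7.10 CPM in VE cysts.

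The genes differed in how evenly VE cells carried them. After each cell was thinned to 40000 UMIs, leaving out 4 Sfrp1-high, 24 Sfrp1-low and 104 VE cyst cells with fewer, Srgn and Spink1 had a UMI in all of the 514 BELA VE cells that remained, and Clps had one in 33.9% of them (29.8 to 38.1%). Without thinning that share was 51.8%. In BELA Epi cells at the same depth, Spink1 was seen in 47.3% and Srgn in 28.3% of 801 cells, and over all 868 cells in 69.8% and 48.3%. A median of 7 of the 9 genes was detected per thinned cell both in BELA VE and in VE cyst VE cells, against 1 in BELA Epi cells. All 9 together were found in 59 of 514 BELA VE cells (11.5%) and in 13 of 473 VE cyst cells (2.75%).

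Windows around the transcription start, from 250 bases before to 50 after it, were taken from RefSeq for 6 of the 9 genes (Ptgds, Lgals2, Pla2g12b, Aqp8, S100g and Srgn) and searched on both strands for short motifs of VE and gut factors. The letters AGATAA, which GATA factors bind, stand in 11.2% of all 32851 such windows. For HNF4 the search used CAAAGTCC, found in 1.42% of windows, and for HNF1 it used GTTAAT, found in 7.10%. For FOXA factors it used TGTTTAC, found in 3.65%, and for the core promoter box TATAAA, found in 13.6%. The 250 bases before the start are shown for Ptgds, which differed most between the VE groups, for Lgals2, whose window held 3 of the 5 motifs, and for S100g, which was highest in VE cysts. Capitals mark a motif, and the build is GRCm38.p6. They lie at chr2:25469750-25469999, chr15:78855530-78855779 and chrX:162964600-162964849, all on the minus strand. The RefSeq start of Ptgds lies inside the GENCODE gene, so that its bases overlap the longer gene model.
Ptgds: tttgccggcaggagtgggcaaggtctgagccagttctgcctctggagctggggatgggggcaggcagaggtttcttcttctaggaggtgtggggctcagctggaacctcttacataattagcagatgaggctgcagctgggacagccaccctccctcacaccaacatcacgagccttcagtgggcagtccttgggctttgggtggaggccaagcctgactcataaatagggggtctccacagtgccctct
Lgals2: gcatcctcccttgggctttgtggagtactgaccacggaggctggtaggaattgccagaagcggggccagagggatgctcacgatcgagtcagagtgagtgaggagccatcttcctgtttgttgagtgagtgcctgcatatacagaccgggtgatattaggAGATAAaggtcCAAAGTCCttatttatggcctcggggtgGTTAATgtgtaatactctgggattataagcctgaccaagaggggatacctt
S100g: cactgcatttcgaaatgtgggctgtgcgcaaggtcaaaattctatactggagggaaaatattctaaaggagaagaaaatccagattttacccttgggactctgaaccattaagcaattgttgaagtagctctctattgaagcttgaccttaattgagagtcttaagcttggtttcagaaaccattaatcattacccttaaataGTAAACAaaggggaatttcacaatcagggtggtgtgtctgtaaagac
With the first base of the transcript at 0, the Lgals2 window held the GATA letters from position -90, those of HNF4 from -79 and those of HNF1 from -51. The S100g window held the FOXA letters, read on the other strand, from -47, and TATAAA from 0. Srgn had TATAAA from -98 of its outer start, and none of these letters stood in the windows of Ptgds, Pla2g12b and Aqp8. A match is a run of letters and was not tested as a site.

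Of the proteins that act in digestion, Spink1 is the Kazal-type inhibitor that keeps trypsin in check in the pancreas (gene on chromosome 18, 43728082 to 43737557, minus strand, GRCm38). Per cell, Spink1 ran from 505 CPM over a median of 2604 to 7922 CPM in Sfrp1-high cells. In Sfrp1-low cells it ran from 19.6 over 2299 to 13368 CPM, and in VE cyst VE cells from 0 over 981 to 11188 CPM. The cells of all 3 groups overlapped widely, and the VE cyst cells reached to lower values. Pooled, this was 2898 CPM in Sfrp1-high and 2751 CPM in Sfrp1-low cells, a ratio of 1.05 (1.04 to 1.07), and 2770 CPM in all BELA VE cells against 1604 CPM in VE cyst VE cells, a ratio of 1.73 (1.71 to 1.74) that stayed under the 2-fold rule.

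Pga5 encodes pepsinogen 5, the inactive form of a pepsin of the stomach (chromosome 19, 10668956 to 10678071, minus strand). Single Sfrp1-high cells held 16.2 to 10651 CPM with a median of 2715 CPM, Sfrp1-low cells 0 to 8277 CPM with a median of 274 CPM, and VE cyst VE cells 0 to 2217 CPM with a median of 97.9 CPM. The groups overlapped, but the lowest decile of the Sfrp1-high cells (738 CPM) lay above the median of both other groups. Pooled levels were 2939.7 CPM in Sfrp1-high against 539 CPM in Sfrp1-low cells, 5.45-fold higher (5.35 to 5.55), and 849 CPM in BELA VE against 173 CPM in VE cyst VE cells, 4.91-fold higher (4.78 to 5.04). Sfrp1-low cells alone were 3.12-fold above VE cysts (3.03 to 3.20).

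Clps is colipase, the cofactor that anchors pancreatic lipase to fat droplets (chromosome 17, 28558149 to 28560766, minus strand). Its cells were most often found in VE cysts. Single cells reached 40.5 CPM at most in the Sfrp1-high group (median 0), 1903 CPM in the Sfrp1-low group (median 7.94 CPM) and 1838 CPM in VE cysts (median 76.7 CPM). Thinned cells held a UMI in 20.6% (11.7 to 32.1%) of Sfrp1-high, 35.9% (31.4 to 40.5%) of Sfrp1-low and 87.1% (83.7 to 89.99%) of VE cyst VE cells, against 0.375% of BELA Epi cells, whose median depth before thinning was 78973 UMIs. The same shares without thinning were 34.7%, 54.5%, 89.1% and 1.152%. The level in BELA VE cells was 21.6 CPM against 149.6 CPM in VE cyst VE cells, 6.93-fold lower (6.51 to 7.39). Sfrp1-high cells at 7.67 CPM were 3.08-fold lower (2.35 to 4.13) than Sfrp1-low cells at 23.7 CPM. That last call rested on 54 UMIs in Sfrp1-high cells and on few Sfrp1-low cells. Its log2 ratio of -1.18 became -0.96 when the 1% of cells with the most Clps was left out of each group, and -0.66 with 20 CPM added.

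Ptgds showed the widest differences. It encodes the lipocalin-type prostaglandin D synthase, an enzyme that makes prostaglandin D2 and also serves as a secreted carrier of small lipophilic molecules (chromosome 2, 25466709 to 25470046, minus strand). Sfrp1-high cells held 0 to 2517 CPM with a median of 404 CPM, Sfrp1-low cells 0 to 1826 CPM with a median of 13.6 CPM, and VE cyst VE cells 0 to 670 CPM with a median of 0. Nearly all Sfrp1-high cells carried it, whereas only a part of the Sfrp1-low cells and few VE cyst cells did. At 40000 UMIs per cell the share with a UMI was 98.5% (92.1 to 99.96%), 48.2% (43.5 to 53.0%) and 7.82% (5.57 to 10.6%) in these groups, against 6.24% (4.67 to 8.15%) in BELA Epi cells. Epi cells of VE cysts, the same library as the VE cyst VE cells, held a UMI in 1 of 44 cells (2.27%, 0.0575 to 12.0%), and Epi cysts in 3.04% (1.81 to 4.76%). The interval of the VE cyst VE share overlapped those of the Epi cells in BELAs and VE cysts and lay above that of Epi cysts. Without thinning the shares were 97.2%, 58.9% and 10.2% in the 3 VE groups, against 14.1% in Epi cells of BELAs, 8.33% in those of VE cysts and 3.81% in Epi cysts. Pooled, Ptgds was at 581 CPM in Sfrp1-high against 122 CPM in Sfrp1-low cells, 4.76-fold higher (4.57 to 4.95), and at 181 CPM in BELA VE against 7.10 CPM in VE cyst VE cells, 25.5-fold higher (22.5 to 29.1). Sfrp1-low cells alone were 17.2-fold (15.2 to 19.6) above VE cysts.

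The 252 Ptgds UMIs of VE cysts were not spread evenly. Only 4 of 577 cells (0.693%, 0.189 to 1.77%) held 100 CPM or more, and they carried 50.8% of the UMIs; 518 cells had none. In Sfrp1-high cells 52 of 72 (72.2%, 60.4 to 82.1%) and in Sfrp1-low cells 111 of 470 (23.6%, 19.8 to 27.7%) passed 100 CPM. Those 111 Sfrp1-low cells held 90.03% of the Ptgds UMIs of their group. Described by other genes, they had Apoa1 at 653 CPM, Apob at 321 CPM and Ttr at 1217 CPM, against 19.5, 36.0 and 312 CPM in the 193 Sfrp1-low cells without a Ptgds UMI. The 4 VE cyst cells had Apoa1 at 955 CPM and Apob at 482 CPM, against 33.8 and 30.5 CPM in the 518 cells without Ptgds. Other yolk sac genes differed less in these cells, with Ttr at 1574 against 1236 CPM, Rbp4 at 542 against 584 CPM and Afp at 32.9 against 39.6 CPM. Sparc, a parietal endoderm marker, was at 3397 CPM in those 4 cells against 12569 CPM in the 518. These cells were deeper as well, with medians of 96719 against 82499 UMIs in the Sfrp1-low group and 92670.5 against 55842.5 UMIs in VE cysts, and the part of depth in who carries a UMI was not tested.

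**Figure D2:**
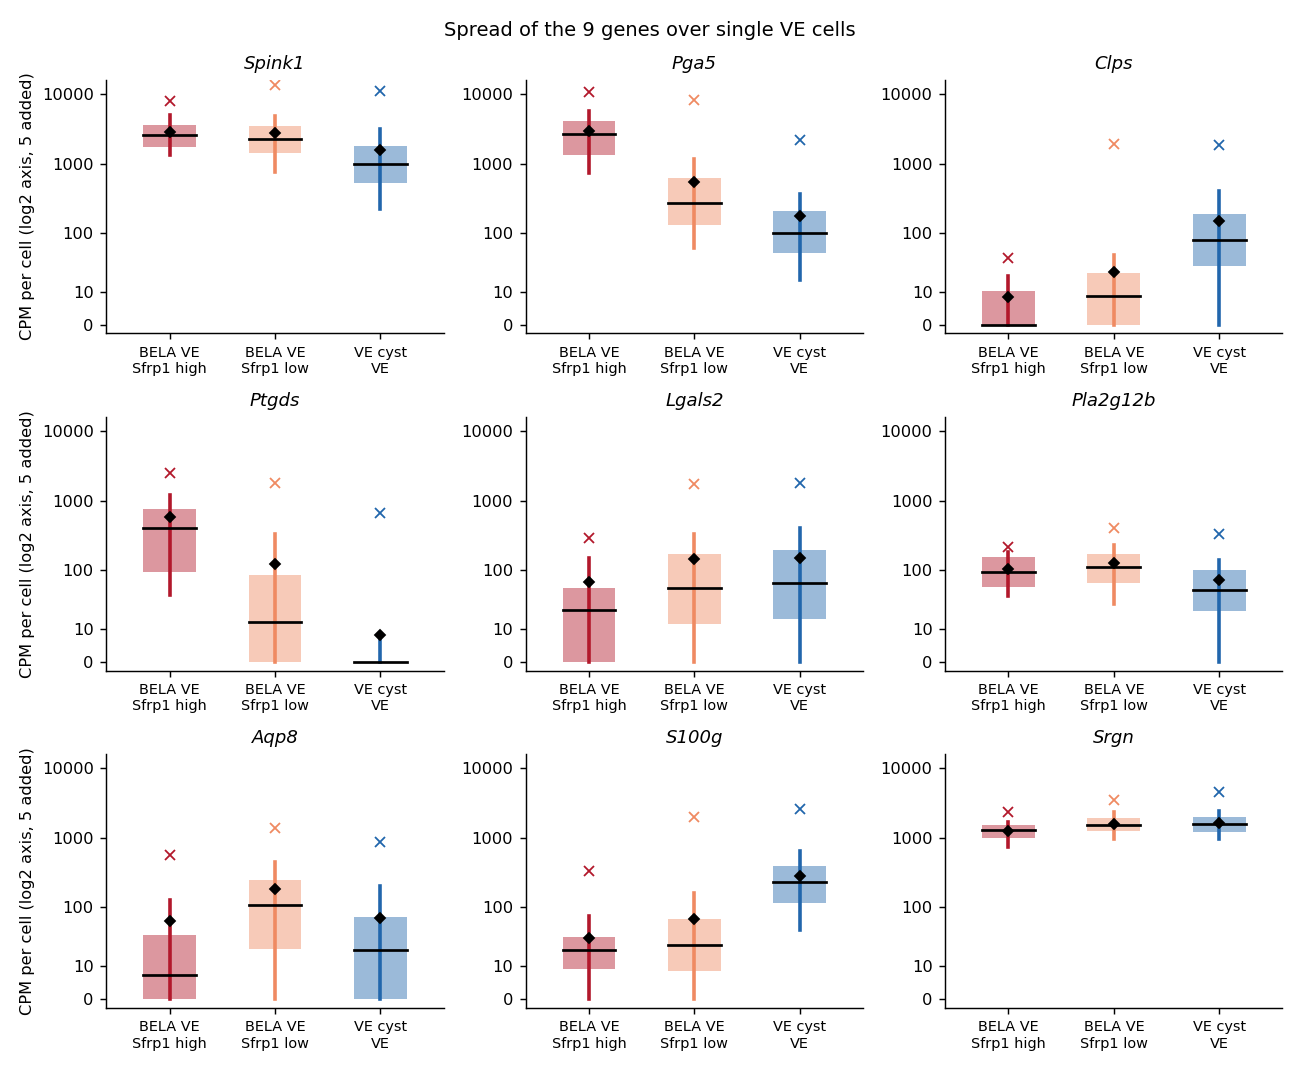
Distribution of each gene over single VE cells, in CPM per cell on a log2 axis after adding 5: boxes span the 25th to 75th percentile, black lines are medians, thin bars run from the 10th to the 90th percentile, crosses are the highest cell and diamonds the pooled level. Medians of Ptgds are 404 CPM, 13.6 CPM and 0 in Sfrp1-high BELA, Sfrp1-low BELA and VE cyst cells, while those of Srgn are 1302, 1559 and 1589 CPM.

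Lgals2 and Pla2g12b are known for binding glycans and for a part in loading lipoproteins, and neither function was measured here. Lgals2, a galectin that binds galactose-containing glycans and is found in stomach and intestine, lies on chromosome 15 (78850860 to 78855529, minus strand). It held 0 to 288 CPM in single Sfrp1-high cells (median 22.8 CPM), 0 to 1738 CPM in Sfrp1-low cells (median 52.7 CPM) and 0 to 1838 CPM in VE cyst VE cells (median 62.8 CPM). Its pooled level was 65.5 CPM in Sfrp1-high against 142 CPM in Sfrp1-low cells, 2.17-fold lower (1.97 to 2.39), and 132 CPM in BELA VE against 149 CPM in VE cyst VE cells, a ratio of 0.886 (0.855 to 0.918). Pla2g12b, a member of the secreted phospholipase A2 family without enzyme activity that is needed in mouse liver to load lipoproteins (chromosome 10, 59403660 to 59421976, plus strand), was found in 94.1% of thinned Sfrp1-high, 93.7% of Sfrp1-low and 80.8% of VE cyst VE cells, against 2.62% of BELA Epi cells (98.6%, 96.4%, 85.3% and 5.65% without thinning). Its level was 104 CPM in Sfrp1-high and 127 CPM in Sfrp1-low cells (ratio 0.816, 0.755 to 0.881), and 124 CPM in BELA VE against 70.2 CPM in VE cyst VE cells (1.77, 1.69 to 1.85).

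Of the transport proteins, Aqp8 is a water channel of gut, liver and pancreas (chromosome 7, 123462291 to 123468004, plus strand). It ran from 0 to 567 CPM in Sfrp1-high cells (median 6.26 CPM), from 0 to 1400 CPM in Sfrp1-low cells (median 104 CPM) and from 0 to 884 CPM in VE cyst VE cells (median 20.1 CPM). The Sfrp1-low cells thus held the most of it, with a UMI in 36.8% of thinned Sfrp1-high, 78.5% of Sfrp1-low and 56.0% of VE cyst VE cells, against 4.12% of BELA Epi cells (51.4%, 84.5%, 63.4% and 6.91% without thinning). Sfrp1-high cells, at 60.0 CPM, were 3.02-fold lower (2.73 to 3.33) than Sfrp1-low cells, at 181 CPM, and BELA VE cells, at 165 CPM, were 2.47-fold higher (2.36 to 2.59) than VE cyst VE cells, at 66.8 CPM. S100g, or calbindin-D9k, ferries calcium through enterocytes and is also known from placenta and yolk sac (chromosome X, 162961992 to 162964599, minus strand). It held 0 to 335 CPM in Sfrp1-high cells (median 20.2 CPM), 0 to 2016 CPM in Sfrp1-low cells (median 24.6 CPM) and 0 to 2577 CPM in VE cyst VE cells (median 229 CPM). At 60.8 CPM in BELA VE against 284 CPM in VE cyst VE cells it was 4.67-fold lower (4.49 to 4.86). Between Sfrp1-high cells at 32.5 CPM and Sfrp1-low cells at 64.9 CPM it lay just outside the rule, with a log2 ratio of -0.90.

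Srgn, serglycin, is the core protein of a secreted and granule-bound proteoglycan best known from blood cells (chromosome 10, 62493833 to 62527451, minus strand). It was the steadiest of the 9: single Sfrp1-high cells held 388 to 2364 CPM (median 1302), Sfrp1-low cells 24.7 to 3526 CPM (median 1559) and VE cyst VE cells 10.6 to 4527 CPM (median 1589). The 10% of cells with the most Srgn held 20.9% of its UMIs in BELA VE and 20.99% in VE cyst VE cells, against 65.1% and 99.6% for Ptgds. Pooled levels were 1269 CPM in Sfrp1-high and 1577 CPM in Sfrp1-low cells (ratio 0.805, 0.787 to 0.823), and 1537 CPM in BELA VE and 1637 CPM in VE cyst VE cells (0.939, 0.929 to 0.949).

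Counted by the 2-fold rule, 3 of the 9 genes (Ptgds, Pga5 and Aqp8) were higher in BELA VE than in VE cyst VE cells, beside 1.65% of all 9381 genes tested, and 2 (Clps and S100g) were lower, beside 2.92%. Between Sfrp1-high and Sfrp1-low cells, 2 genes (Pga5 and Ptgds) were higher, beside 2.68% of 9238 genes, and 3 (Clps, Aqp8 and Lgals2) were lower, beside 1.58%. Between Sfrp1-low BELA VE cells and VE cysts the same 3 were higher, beside 1.51%, and the same 2 lower, beside 2.91%. Because the genes were chosen on measurements of these cells, nothing is read from these shares. The median log2 ratio of the 9 was 0.78, -0.31 and 0.78 in these comparisons, against -0.12, 0.01 and -0.13 over all genes tested. The comparisons share cells, so they are not independent of each other. Without Sfrp1-high cells Ptgds and Pga5 remained above VE cysts, as did Aqp8, and Clps and S100g remained below.

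**Figure D3:**
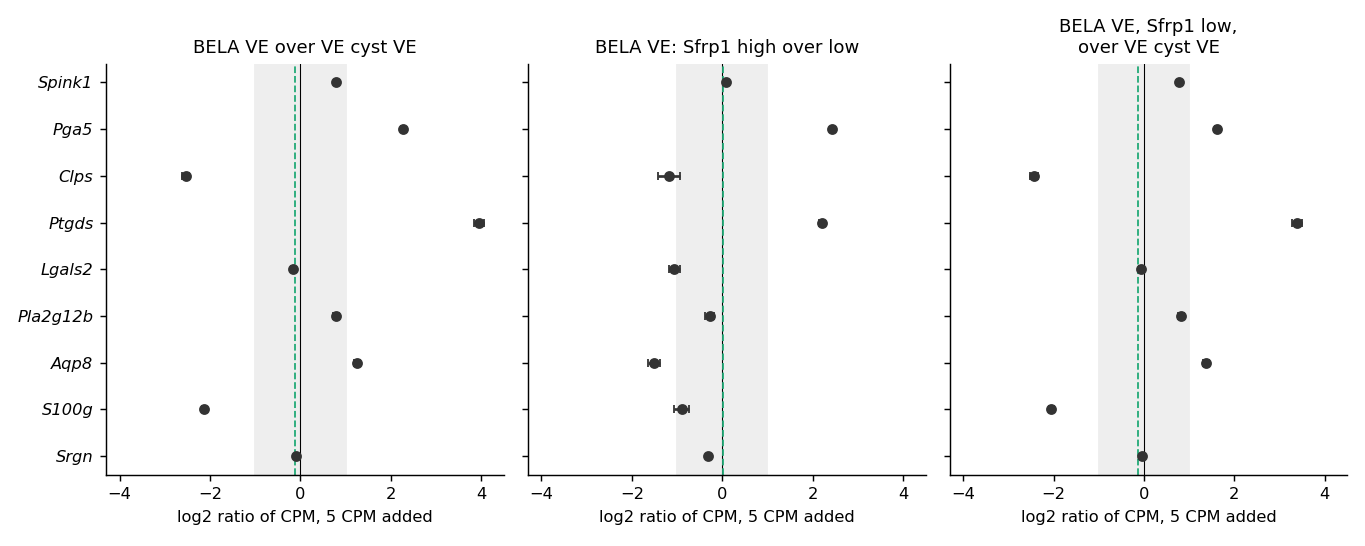
Log2 ratio of the level of each gene, after adding 5 CPM, for BELA VE over VE cyst VE cells, for Sfrp1-high over Sfrp1-low BELA VE cells, and for Sfrp1-low BELA VE over VE cyst VE cells; bars are 95% ranges of counting error, the grey band is the range under 2-fold and the dashed line the median of all genes tested. Ptgds reaches 3.95 in the left panel, and S100g at -0.90 in the middle panel is the value nearest to the rule from inside.

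The 9 genes followed the Sfrp1 level of the cell in different ways. Over the 289 BELA VE cells with no Sfrp1 UMI, the 118 under 25 CPM, 25 at 25 to 50, 18 at 50 to 100, 20 at 100 to 200, 14 at 200 to 400 and 58 at 400 CPM or more, Ptgds stood at 53.9, 137, 166, 405, 553, 637 and 558 CPM. Its level was thus several-fold above that of Sfrp1-free cells well before the 200 CPM cut. Pga5 stood at 461, 481, 867, 818, 1206, 2231 and 3233 CPM over the same cells, highest in the last group. Aqp8 stood at 172, 199, 155, 247, 145, 127 and 32.3 CPM and Lgals2 at 126, 143, 221, 184, 193, 129 and 39.2 CPM, so that the low values of both lay in the cells at 400 CPM or more. Spink1 was at 2557 CPM without Sfrp1, at 4172 CPM between 100 and 200 CPM, and at 2658 CPM in the last group. Within the Sfrp1-low cells, those with a UMI of Lhx1, an AVE transcription factor, had Ptgds at 174 CPM and Pga5 at 671 CPM (222 cells, median depth 104478 UMIs), against 63.0 and 389 CPM in those without (248 cells, 82178 UMIs). Aqp8 was also higher in the Lhx1 cells, at 235 against 119 CPM.

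Some of these calls depended on the Sfrp1 cut. With Sfrp1-high cells defined at 100 CPM, the log2 ratio of Lgals2 was -0.51 in place of -1.06, and with the same number of cells taken by the summed UMIs of 7 other AVE genes, Lgals2 was at -0.69, Aqp8 at -0.74 and S100g at -1.13.

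**Figure D4:**
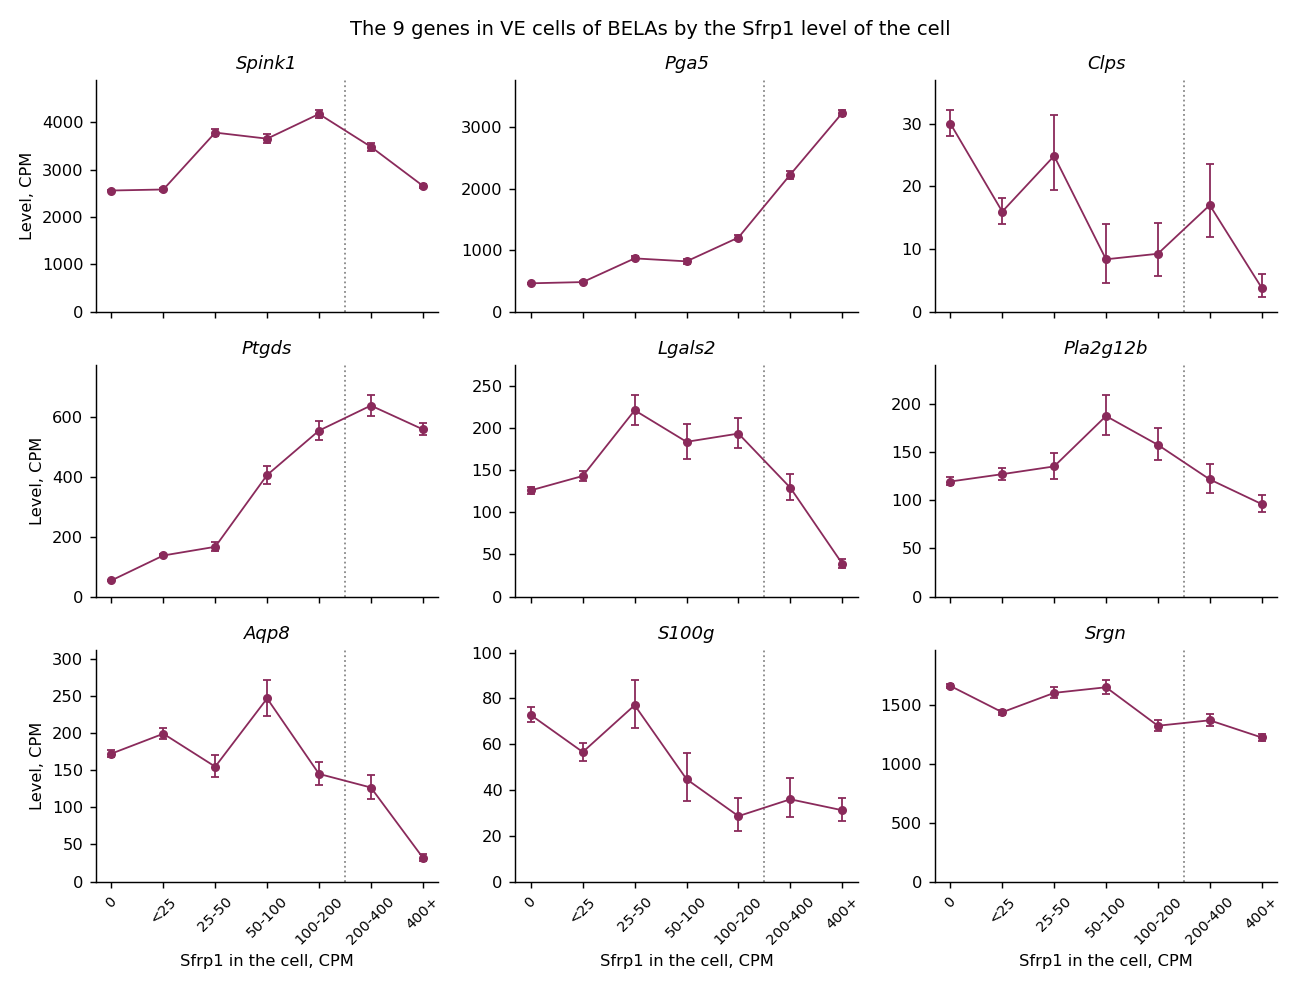
Pooled level of each gene in BELA VE cells grouped by the Sfrp1 level of the cell, from no UMI to 400 CPM and more; bars are 95% Poisson intervals and the dotted line marks the cut at 200 CPM. Pga5 is at 461 CPM in the first and 3233 CPM in the last group, and Aqp8 at 172 and 32.3 CPM.

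The VE groups also differed in other endoderm programs. A parietal endoderm list of 9 genes (Sparc, Col4a1, Col4a2, Lama1, Lamb1, Lamc1, Nid1, Plat and Thbd) summed to 3549 CPM in Sfrp1-high, 9633 CPM in Sfrp1-low and 22563 CPM in VE cyst VE cells, with Thbd at 0 in Sfrp1-high cells. A list of 10 yolk sac genes summed to 3230, 1502 and 2220 CPM in the same groups, with no gene at 0. Its genes did not share 1 order between Sfrp1-low BELA and VE cyst cells. Ttr (634 against 1261 CPM) and Rbp4 (74.7 against 568 CPM) were lower in Sfrp1-low cells, as were Apoa2, Afp and Fgb, whereas Apoa1 (203 against 55.9 CPM), Apoa4 (124 against 34.2 CPM), Apob (142 against 66.2 CPM), Apom (273 against 123 CPM) and Trf (22.6 against 7.86 CPM) were higher. Within VE cysts, from the lowest to the highest quartile of cells by the parietal list, Spink1 stood at 2787, 1488, 1142 and 734 CPM. Srgn stood at 1295, 1568, 1724 and 2048 CPM. Over such quartiles of BELA VE cells Spink1 stood at 2837, 2955, 2732 and 2483 CPM, and Srgn rose too, at 1223, 1496, 1649 and 1828 CPM. The quartiles span unlike levels of the list, 3661 to 15574 CPM in BELA VE and 13000 to 33153 CPM in VE cyst cells. From the shared range of 10000 to 20000 CPM to that of 20000 CPM or more, Spink1 fell in both. It went from 2624 to 1253 CPM in Sfrp1-low BELA cells (186 and 22 cells) and from 2271 to 1074 CPM in VE cyst cells (150 and 394 cells). Over quartiles by the yolk sac list, Lgals2 stood at 24.6, 64.8, 139 and 383 CPM in VE cysts and at 29.2, 78.9, 147 and 264 CPM in BELA VE cells. S100g, at 208, 250, 264 and 423 CPM in VE cysts, followed the same order. Over the yolk sac quartiles of BELA VE cells, Spink1 stood at 1521, 2215, 3097 and 4124 CPM. Pga5 stood there at 193, 562, 1038 and 1538 CPM and Ptgds at 15.0, 53.4, 145 and 500 CPM. Pla2g12b, Aqp8 and S100g rose at each step in BELA VE cells as well, whereas Clps and Srgn did not. These BELA quartiles pool Sfrp1-high and Sfrp1-low cells, which differed in the yolk sac sum, in Pga5 and in Ptgds. The part of that split in these orders was not tested.

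Since the parietal list moved with the groups, Sfrp1-low BELA cells and VE cyst cells were also compared within the same range of it. The range was 10000 to 20000 CPM (186 and 150 cells). Within it the list was still lower in Sfrp1-low BELA cells, at 12968 against 15723 CPM. There Spink1 was at 2624 CPM in Sfrp1-low BELA cells and 2271 CPM in VE cyst cells, a log2 ratio of 0.21 in place of 0.78. Pla2g12b had a log2 ratio of 0.26 in place of 0.81. Ptgds was at 69.3 against 5.998 CPM, Pga5 at 504 against 159 CPM and Aqp8 at 141 against 56.2 CPM, and Clps was at 24.4 against 113 CPM and S100g at 80.6 against 233 CPM. In this range the 5 genes past 2-fold were the same as over all cells, but in the other ranges they were not. At 20000 CPM or more, Clps was at 209 CPM in 22 Sfrp1-low BELA cells, and at 133 CPM without the cell highest in it, against 175 CPM in 394 VE cyst cells. Pga5 was there at 362 against 184 CPM, just under the 2-fold rule, and at 271 CPM in Sfrp1-low BELA cells without the cell highest in it. Between 5000 and 10000 CPM, Spink1 was at 2872 CPM in 204 Sfrp1-low BELA cells against 4122 CPM in only 24 VE cyst cells, the opposite order. Aqp8, at 201 against 111 CPM, was under 2-fold in these cells. Without the cell highest in it in each group, Aqp8 was at 199 against 75.3 CPM, over 2-fold higher. Lgals2, at 151 against 442 CPM, was over 2-fold lower in Sfrp1-low BELA cells. Under 5000 CPM only 9 VE cyst cells were left. There Spink1 was at 3038 against 3456 CPM, Lgals2 at 173 against 409 CPM and Srgn at 1234 against 522 CPM. Without the cell highest in the gene in each group, Spink1 was at 2830 against 2597 CPM, the reverse order. Lgals2 was then at 160 against 278 CPM, under 2-fold, and Srgn at 1207 against 434 CPM. The gap in Ptgds also varied with the range. Under 5000 CPM it was at 337 against 132 CPM, or 319 against 45.9 CPM without the cell highest in it in each group. Between 5000 and 10000 CPM it was at 111 against 46.6 CPM, or 99.5 against 20.4 CPM without those cells. At 20000 CPM or more it was at 23.6 against 1.60 CPM. The ranges were chosen after seeing the data, and the part of the parietal program in any of these differences was not tested.

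**Figure D5:**
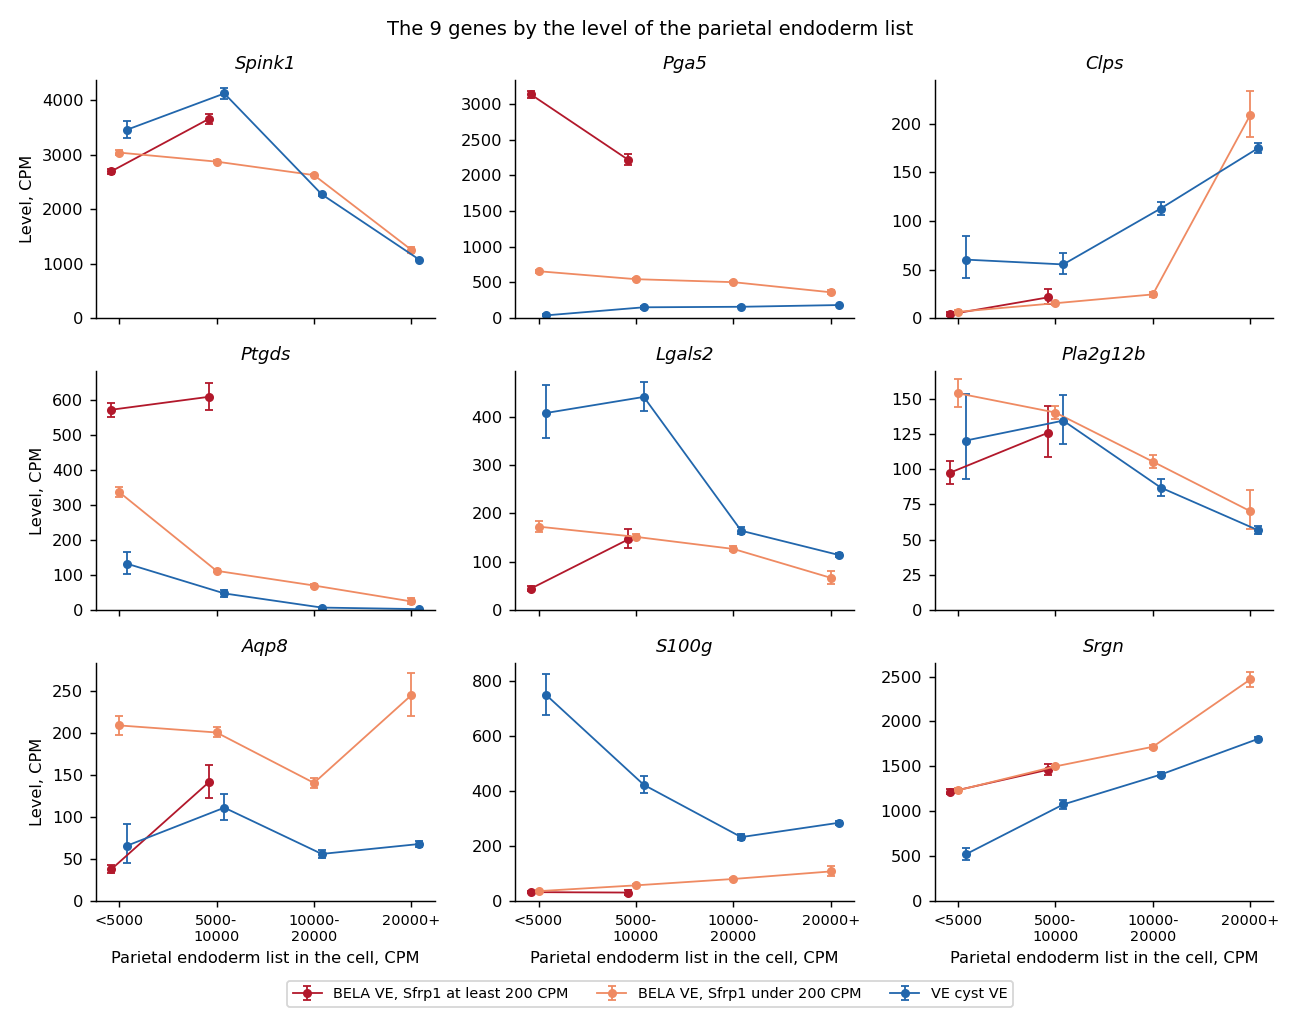
Level of each gene in Sfrp1-high BELA, Sfrp1-low BELA and VE cyst VE cells grouped by the summed CPM of the parietal endoderm list in the cell; bars are 95% Poisson intervals, and groups of 9 and 10 cells are included at the left. Spink1 of Sfrp1-low BELA and VE cyst cells lies at 1253 and 1074 CPM in the highest range, whereas Ptgds and Pga5 stay above VE cysts in every range.

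Across thinned VE cells, few pairs of the 9 genes varied together. Of 36 pairs, 6 had a Spearman correlation above 0.3 in 514 BELA VE cells and 4 in 473 VE cyst cells, with medians of 0.11 and 0.06. The points of each value share a library, and these are descriptions. Pga5 and Ptgds had the highest value in BELA VE cells, 0.56, which was 0.45 in Sfrp1-low cells alone and -0.04 in VE cysts, where few cells held Ptgds. Spink1 and Pla2g12b gave 0.38 in BELA VE and 0.35 in VE cyst VE cells. Lgals2 and Aqp8 gave 0.42 and 0.09, and Spink1 and Pga5 0.13 and -0.29. Clps and S100g, both lower in BELAs, gave 0.16 and 0.31.

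Among 8433 genes found in at least 20% of the thinned VE cells of both libraries, the gene most like Lgals2 (by the lower of the 2 correlations) was Ttr, the thyroxine carrier of yolk sac and liver, with 0.45 in BELA VE and 0.68 in VE cyst VE cells, ahead of Apoc2 and Apom. For Spink1 these were Cyba (0.53 and 0.48), Ctsc and Gpc3, and for Pla2g12b Folr1 (0.43 and 0.36), Lgmn and Ctsh, of which Lgmn and Ctsh are lysosomal proteases, as is Ctsc. The nearest genes of Srgn were Sparc (0.46 and 0.49), Lrpap1 and Serpinh1, a collagen chaperone, and those of Clps were Gpx3 (0.30 and 0.28), Col4a1 and Plod2. Pga5 had Ctsl (0.26 and 0.35), Sfrp5 and Cyp26a1. The values of Aqp8 (Cd63, 0.35 and 0.20) and S100g (Epas1, 0.19 and 0.18) were weak. Ptgds was in too few VE cyst cells for this.

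The gene families around the 9 members, listed with these results in view, held few other genes past the 2-fold rule. Of 35 digestive enzymes, 12 had no UMI in VE cells. Pnlip, the pancreatic lipase and partner of colipase, was at 0 in BELA VE and VE cyst VE cells. Pgc, another pepsinogen, was at 6.62 and 8.57 CPM. The only listed non-members over 10 CPM were Dpp4 (174 CPM in BELA VE and 245 CPM in VE cyst VE cells) and Enpep, both peptidases of brush borders. Enpep was lower in BELA VE cells (11.3 against 40.7 CPM) and in Sfrp1-high cells (2.70 against 12.6 CPM in Sfrp1-low cells). Of 12 Kazal- and Kunitz-type inhibitors, Spink4 was lower in BELA VE cells, at 0.715 against 9.58 CPM, and no other non-member passed the rule, with Spint2 at 217 and 260.2 CPM. Of 9 galectins measured no non-member did, with Lgals1 at 84.5 CPM in BELA VE and 40.1 CPM in VE cyst VE cells. Likewise none of 11 secreted phospholipases A2 other than Pla2g12b and none of 11 aquaporins other than Aqp8 passed it, with Aqp11 at 21.3 and 14.1 CPM.

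Among 11 lipocalins, the family of Ptgds, Apom was higher in BELA VE cells (271 against 123 CPM) and Rbp4, the retinol carrier, was lower (97.3 against 568 CPM) yet higher in Sfrp1-high cells (249.5 against 74.7 CPM in Sfrp1-low cells). Of 24 genes of prostaglandin synthesis and transport, only Ptgds passed the rule in either comparison. In this list 9 genes, Ptgds among them, reached 10 CPM in VE cells. The highest non-members were Ptges3 (390 CPM in BELA VE and 293 CPM in VE cyst VE cells), Cbr1 (106 and 216 CPM) and Ptgr1 (42.9 and 42.6 CPM). Others were sparse: named after their values were seen, Ptgs2 and the receptor Ptgdr had no UMI in the VE cells of BELAs or VE cysts. Ptgs1 was at 0.202 and 0.366 CPM. Of 13 genes of lipoprotein secretion, Apob was higher in BELA VE cells (162 against 66.2 CPM) and in Sfrp1-high cells (298 against 142 CPM). Of 18 S100 genes, S100a10 was higher in BELA VE cells (317 against 154 CPM), whereas S100a1 had 668 and 899 CPM. In the calcium list of 12 genes, Lrp2, an endocytic receptor, was lower in Sfrp1-high cells (203 against 475 CPM), and Atp2b1, a calcium pump, had 196 CPM in BELA VE and 285 CPM in VE cyst VE cells. Of 14 small proteoglycans, Spock1 was lower in BELA VE (21.003 against 159 CPM) and in Sfrp1-high cells (4.12 against 23.5 CPM).

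Of 22 brush border and enterocyte transport genes, Fabp1 was lower in BELA VE than in VE cyst VE cells (5.78 against 32.2 CPM), and Vil1, Pdzk1 and Slc15a1 were higher and Slc2a2 lower in Sfrp1-high than in Sfrp1-low cells. Amn, the partner of Cubn in endocytosis, had 1226 CPM in BELA VE and 627 CPM in VE cyst VE cells. Of 22 transcription factors of gut and VE, Onecut1 was lower in BELA VE cells (0.917 against 8.99 CPM). Between Sfrp1-high and Sfrp1-low cells, Foxa1 (10.51 against 0.463 CPM) and Foxa3 (17.1 against 4.23 CPM) were higher, and Klf5 (58.3 against 179 CPM) and Sox17 (50.02 against 135 CPM) were lower.

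The defining markers of the adult organs for which several of the 9 are known differed in level between the lists. Of 9 pancreatic acinar markers 5 were at 0 in BELA VE cells and 5 in VE cyst VE cells (Prss2, Pnlip, Ptf1a and Amy2a5 in both, Cpa1 in BELAs and Prss1 in VE cysts), and all 9 summed to 3.27 CPM in Sfrp1-high, 1.73 CPM in Sfrp1-low and 1.41 CPM in VE cyst VE cells. Of 7 gastric markers, Tff2 was at 0 in BELA VE and VE cyst VE cells, Tff1 also in Sfrp1-high cells, and the list summed to 8.10, 10.2 and 13.5 CPM. Of 9 enterocyte markers, Sis was at 0 in all 3 groups, Alpi in both BELA groups and Lct and Cdx1 in Sfrp1-high cells, and the list summed to 219.7, 150.4 and 90.6 CPM, of which Apoa4, also a yolk sac gene, made up 183, 124 and 34.2 CPM. Fabp1 made up 2.13, 6.32 and 32.2 CPM of it, Vil1 24.0, 9.12 and 7.66 CPM, and Fabp2 8.53, 9.65 and 11.3 CPM. Of 9 blood and mast cell markers, which bear on Srgn, Ptprc, Cpa3 and Pf4 were at 0 in all 3 groups and Cd52 in Sfrp1-high cells, and the list summed to 14.8, 24.1 and 56.0 CPM with Kit as the highest. The 7 endothelial markers summed to 4.55, 6.91 and 16.1 CPM, with Cldn5 at 0 in Sfrp1-high and VE cyst VE cells and Tie1 at 0 in Sfrp1-high cells.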

How the data were processed

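Single-cell 3' RNA-seq libraries (10x v3.1) of BELAs, VE cysts and Epi cysts, 1 per structure, were used. The authors aligned reads to mm10 and made the deposited UMI counts with Cell Ranger 4.0.0, and the deposited matrices hold raw counts for 32285 genes, without normalization. A UMI counts a molecule by its 3' end, so levels were not scaled by gene length. The members and all gene lists were chosen with earlier results of these data known, and the split by Ptgds and the ranges of the parietal list were added after seeing the data.

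Cells needed 4000 or more genes and no more than 10% mitochondrial UMIs, which kept 1410 of 2220 barcodes of BELAs, 625 of 881 of VE cysts and 657 of 1076 of Epi cysts, with total counts in kept cells of 126625916, 39793263 and 40962566 UMIs. Doublets were left in except as an alternative. Counts were pooled per group into CPM in Python 3.11.15 with numpy 2.4.6, scipy 1.17.1 and pandas 2.3.3. Ratios have exact conditional intervals of counting error, and log2 ratios used 5 CPM added to both levels. Genes with a mean of both levels of at least 5 CPM gave the share over all genes. For shares of cells and correlations, cells were thinned without replacement to 40000 UMIs. The code was tested on simulated counts. Of each list, up to 3 non-members of at least 10 CPM with the highest VE level, and non-members past 2-fold, were named. Gene positions are from GENCODE M21 (GRCm38, the assembly of mm10), and promoter windows and their starts from RefSeq. No test between groups was possible with 1 library each. Alternatives were other pseudocounts, cell filters, averages per cell, thinning, leaving out mixed cells, doublets (Scrublet in scanpy 1.11.5) or the cells highest in a gene, subtracting the Epi level, and other Sfrp1 cuts.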

Additional observations from a re-analysis of the deposited data

How the results depend on the processing

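The counts of the 9 genes past 2-fold were recomputed under each alternative. Adding 20 CPM in place of 5 left 1 of the 3 genes lower in Sfrp1-high than in Sfrp1-low cells (Aqp8), losing Clps and Lgals2. In that comparison the count was 2 when the top 1% of cells was left out (without Clps), at an Sfrp1 cut of 100 CPM (without Lgals2) and with the AVE sum in place of Sfrp1 (without Lgals2 and Aqp8, with S100g). Ptgds made 9 of 9 genes higher in VE than in Epi cells of VE cysts with 1 CPM added, with the wider cell filter and without mixed cells. The other counts were the same under every alternative run. Of 441 recomputed log2 ratios, 247 moved by less than their counting interval, 194 moved by more, and none of the called ones changed sign. Scrublet marked 31 cells in BELAs, 3 in VE cysts and 14 in Epi cysts as doublets. Without a filter on low levels, 159 and 287 genes were higher and lower in BELA VE than in VE cyst VE cells, against 155 and 274 with it. No paired analysis was possible because each structure has 1 library and no result comes from a test. Depth limits the low genes most: 1 UMI stands for 0.142 CPM in Sfrp1-high cells and 0.232 CPM in the 48 Epi cells of VE cysts, where Pla2g12b had no UMI.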

Other observations

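In Epi cysts, Spink1 came almost wholly from 1 cell. It held 399 of the 412 Spink1 UMIs among 60739 UMIs in all, and without it the level was 0.318 CPM in place of 10.1 CPM. The cell had 3 UMIs of the VE markers and 3 of the Epi markers, and therefore counted as Epi. It had no UMI of the other 8 genes, none of Sox17 and none of T, but 164 UMIs of Trh, 24 of Krt8 and 6 of Foxa2. These genes were looked up after the cell was seen, and a single cell has no replicate.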
